A study of Mus musculus with 15 samples.

Results

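The depletion of Tet1 in mouse embryonic stem (ES) cells by 2 separate hairpins, read against a scrambled hairpin, is described here across all probe sets. The members are the 9 arrays of the Tet1 set, chosen by their titles out of 15 in the series: 3 arrays labelled shScr without the mark of the Sin3A samples, 3 labelled shTet1#4 (hairpin 4 below) and 3 labelled shTet1#5 (hairpin 5). The mean of hairpin 4 and the mean of hairpin 5 were given equal weight, and their average minus the scrambled mean is called the pooled change. A probe set was put in the agreed response when the pooled contrast and each hairpin alone passed a limma adjusted p of 0.05, all with the same sign. Both hairpins were read against the same 3 scrambled arrays, so their agreement is not independent.

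All 9 samples were E14TG2a.4 cells, a feeder-independent mouse ES line at passage 17, kept on gelatin in medium with 15% foetal serum and leukaemia inhibitory factor. A short hairpin RNA in the pLKO.1 lentiviral vector, which directs the breakdown of the messenger RNA it matches, was delivered to every group, the controls included. Selection with puromycin at 2 µg per ml began 36 hours after transduction and ran for 72 hours, so all groups also share infection and drug. Total RNA went through an Affymetrix whole transcript kit, and each sample was read on an array of its own in 1 colour. Nothing in the labels ties the 3 arrays of a group to separate cultures, so the p-values measure array-to-array spread, perhaps a technical one only. In bulk RNA fewer cells of a type and less RNA per cell cannot be told apart.

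Tet1 encodes a dioxygenase that uses oxygen, iron and 2-oxoglutarate to turn 5-methylcytosine in DNA into 5-hydroxymethylcytosine and further oxidised bases. It is abundant in ES cells and binds mostly at promoters rich in CG dinucleotides, the sites at which mammalian DNA is methylated. It also associates with repressor complexes, so its loss has been linked to both gains and losses of transcripts.

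Because CG dinucleotides are the substrate of the pathway, the 250 bases upstream of the start are shown for the 3 highest and 3 lowest agreed genes besides Tet1 that have an entry in the RefSeq promoter table (build GRCm38.p6). Each sequence runs 5′ to 3′ on the strand of its gene, and capitals mark every CG. The windows are Hal at chr10:93488518-93488767 (plus strand), Sema5b at chr16:35541112-35541361 (plus strand), Tgfbi at chr13:56609336-56609585 (plus strand), Cnn2 at chr10:79988350-79988599 (plus strand), Fndc3c1 at chrX:106485230-106485479 (minus strand) and Pramel19 at chr4:101940157-101940406 (plus strand). No label names a build for the arrays' own probe sets.
Hal: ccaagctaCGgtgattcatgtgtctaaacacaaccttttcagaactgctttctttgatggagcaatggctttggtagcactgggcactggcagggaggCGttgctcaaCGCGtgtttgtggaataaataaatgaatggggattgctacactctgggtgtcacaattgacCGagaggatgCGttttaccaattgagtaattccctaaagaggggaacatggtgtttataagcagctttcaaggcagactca
Sema5b: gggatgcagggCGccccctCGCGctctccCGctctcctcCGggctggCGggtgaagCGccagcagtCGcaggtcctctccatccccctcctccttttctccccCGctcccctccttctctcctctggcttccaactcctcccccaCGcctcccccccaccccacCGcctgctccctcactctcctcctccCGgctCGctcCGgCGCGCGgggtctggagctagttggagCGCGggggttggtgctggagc
Tgfbi: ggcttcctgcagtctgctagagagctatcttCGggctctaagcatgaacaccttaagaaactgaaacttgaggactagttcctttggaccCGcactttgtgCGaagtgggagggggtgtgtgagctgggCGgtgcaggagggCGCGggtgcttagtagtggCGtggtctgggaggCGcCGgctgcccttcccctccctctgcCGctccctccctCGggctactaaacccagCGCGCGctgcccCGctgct
Cnn2: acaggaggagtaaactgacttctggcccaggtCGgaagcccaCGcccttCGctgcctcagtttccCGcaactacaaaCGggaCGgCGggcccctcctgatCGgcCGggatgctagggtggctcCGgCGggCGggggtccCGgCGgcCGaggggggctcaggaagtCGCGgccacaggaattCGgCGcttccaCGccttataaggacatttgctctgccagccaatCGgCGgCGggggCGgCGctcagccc
Fndc3c1: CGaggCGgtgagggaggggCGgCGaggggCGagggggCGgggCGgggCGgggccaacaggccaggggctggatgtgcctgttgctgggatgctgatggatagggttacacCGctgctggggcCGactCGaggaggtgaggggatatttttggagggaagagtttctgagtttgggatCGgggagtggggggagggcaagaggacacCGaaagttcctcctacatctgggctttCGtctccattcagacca
Pramel19: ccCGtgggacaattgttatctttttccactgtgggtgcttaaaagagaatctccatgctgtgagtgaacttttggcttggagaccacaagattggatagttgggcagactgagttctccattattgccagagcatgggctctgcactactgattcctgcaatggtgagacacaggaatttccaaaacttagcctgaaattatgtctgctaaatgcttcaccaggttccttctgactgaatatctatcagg
These windows span the range of promoter types. Pramel19 has 1 CG and Hal 6, while Fndc3c1 has 14, Tgfbi 15, Sema5b 19 and Cnn2 25. At least 1 CG lies in 92.1% of all windows of this length in the table, with a median of 6. The gene that fell furthest (Cnn2) and another that fell by more than 3-fold (Pramel19) are thus at opposite ends of this measure. Gfra2 and A2m, which rose among the furthest, have no window in the table.

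The knockdown was present in every array. The Tet1 probe set read 12.21, 12.17 and 12.21 on the log2 scale with the scrambled hairpin. It read 10.43, 10.44 and 10.39 with hairpin 4 and 9.94, 10.14 and 10.20 with hairpin 5. All 6 knockdown arrays lay below all 3 scrambled arrays with a wide gap. The pooled change was -1.94 ± 0.06 (log2, SE, n = 3 arrays per group), a 3.84-fold reduction with a limma adjusted p of 3.8e-07 (Benjamini-Hochberg over all probe sets). The paralogues Tet2 and Tet3 had pooled changes of -0.003 and -0.08 that did not pass (limma adjusted p = 0.985 and 0.44).

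The 9 arrays had means of 7.08 to 7.11, and arrays of 1 group correlated with r between 0.994 and 0.998 across probe sets. All 8 ES cell markers checked lay above the median probe set, with a mean log2 level of 11.82 to 11.87 in the scrambled arrays and 11.85 to 11.97 in the knockdown arrays, and Pou5f1, Nanog and Sox2 did not pass (pooled changes 0.05, 0.04 and 0.01, limma adjusted p = 0.57, 0.68 and 0.94), while Klf4 (0.37) and Tdgf1 (0.22) were in the agreed response. Markers of other cell types lay lower: 3 of 10 fibroblast, 2 of 7 primitive endoderm, 1 of 6 trophectoderm, 4 of 4 neuroectoderm, 0 of 3 mesendoderm and 1 of 4 blood or endothelial markers were above that median. The second scrambled array and the second array of hairpin 4 shared a deviation from their group means (r = 0.517 across probe sets), and counts that move by over 1.5 times without both are given beside the results below. The same value recurred in at least 2 of the 9 arrays in 49.1% of the probe sets, so spreads of single probe sets can be too narrow.

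Of 21212 probe sets, the pooled contrast called 2050 higher (9.66%) and 1382 lower (6.52%), and 5805 had an unadjusted p under 0.05. The agreed response held 1868 of them (8.81%), 1146 higher (5.40%) and 722 lower (3.40%). The other 1564 pooled calls passed without both hairpins passing alone, and in 7 of these the hairpins had opposite signs. Non-overlap was also counted without a test: 2342 probe sets (11.0%) were higher in all 6 knockdown arrays than in all 3 scrambled arrays and 1599 (7.54%) were lower in all 6. Of the agreed probe sets 1145 of 1146 and 722 of 722 were among them.

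Most agreed changes were modest. The median was 0.47 among the higher and -0.48 among the lower, on the log2 scale. At least 2-fold changes were found for 69 higher (0.325%) and 43 lower (0.203%) probe sets, and 4-fold changes for 1 higher (Gfra2) and 2 lower (Cnn2 and Thbs1). The counts of all lower probe sets rested on scrambled replicate 3, without which 894 were lower in the pooled contrast and 471 in the agreed response, whereas 38 of at least 2-fold were lower without it. Calls were rare at low signal: over 5 equal groups by mean level, from lowest to highest, 0.165%, 1.13%, 6.32%, 10.5% and 8.86% of the probe sets were agreed higher and 0.306%, 1.67%, 4.45%, 5.47% and 5.11% agreed lower.

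**Figure D1:**
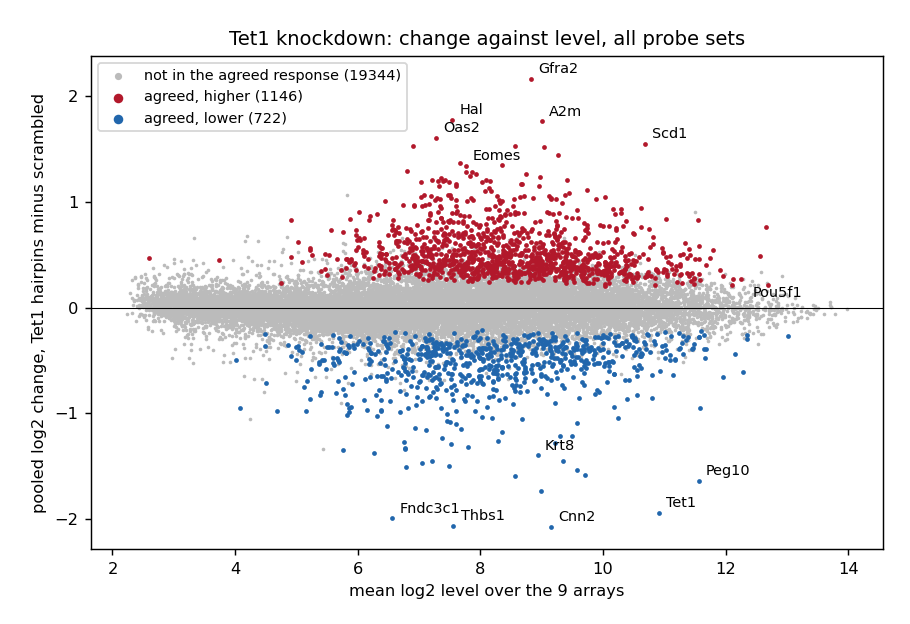
Pooled log2 change (Tet1 hairpins minus scrambled, vertical axis) against the mean log2 level over 9 arrays (horizontal axis) for 21212 probe sets. The 1146 agreed higher probe sets (red) and 722 agreed lower ones (blue) lie mostly at middle and high levels, and Pou5f1 sits among the grey points that are not in the agreed response.

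Gfra2, a co-receptor for neurturin and related ligands of the GDNF family, rose furthest. It read 7.60, 7.31 and 7.22 with the scrambled hairpin, 9.42, 9.67 and 9.37 with hairpin 4 and 9.50, 9.63 and 9.65 with hairpin 5. Both hairpins reached the same range, far above the controls. The pooled change was 2.17 ± 0.10 (SE, 4.49-fold, limma adjusted p = 2.1e-06). Hal, the enzyme that removes ammonia from histidine and whose promoter window holds 6 CG, read 6.15, 6.30 and 6.61, then 8.22, 8.04 and 8.23, then 8.04, 8.06 and 8.19 in the same order of groups. Its change was 1.78 ± 0.10 (3.43-fold, limma adjusted p = 5e-06). A2m, a broad protease inhibitor of plasma, read 7.61, 7.81 and 8.07, then 9.95, 9.58 and 9.88 with hairpin 4 and 9.35, 9.42 and 9.38 with hairpin 5, where the 3 values of hairpin 5 lay below those of hairpin 4 but above every control.

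Among the next genes were Oas2 (1.60 on the log2 scale), an interferon-induced sensor of double-stranded RNA, Scd1 (1.55), a fatty acid desaturase, and the semaphorin gene Sema5b (1.52). Skida1 (1.52), the secreted matrix protein gene Tgfbi (1.52), Kdelr3 (1.44), which returns proteins to the endoplasmic reticulum, and the apoptosis initiator Casp8 (1.37) completed the 10 highest. The following 10 spanned 1.35 to 1.23 and included Zc3hav1, an antiviral zinc finger protein, the T-box factor Eomes, the interferon-induced GTPase Irgm1, the tetraspanin Cd37 and the homeobox gene Vax2. No array of either hairpin overlapped with the controls for any of the 10 highest, which also held for 1145 of 1146 agreed higher probe sets.

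Cnn2, which encodes the actin-binding protein calponin 2 and has 25 CG in the window shown, fell furthest. It read 10.61, 10.46 and 10.52 with the scrambled hairpin, 8.20, 8.38 and 8.34 with hairpin 4 and 8.58, 8.68 and 8.57 with hairpin 5. The groups did not overlap and the change of -2.07 ± 0.06 (SE, 4.20-fold lower, limma adjusted p = 2.8e-07) far exceeded the spread within groups. Thbs1, a secreted matrix glycoprotein, read 9.08, 8.83 and 8.88, then 6.71, 6.61 and 6.73, then 7.11, 7.10 and 6.94. Its change was -2.06 ± 0.07 (4.18-fold lower, limma adjusted p = 5.6e-07), with every hairpin 4 array below every hairpin 5 array.

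Fndc3c1, on the X chromosome, read 8.10, 7.69 and 7.89 with the scrambled hairpin, 5.87, 5.52 and 5.75 with hairpin 4 and 5.85, 6.29 and 6.11 with hairpin 5 (change -1.99 ± 0.12, SE, limma adjusted p = 8.8e-06). Pramel19, of the family around the tumour antigen PRAME, fell by 1.73 ± 0.17 on the log2 scale, from controls of 10.37, 9.84 and 10.20. Klhl13 (-1.58), a substrate adaptor of a ubiquitin ligase, the paternally expressed Peg10 (-1.64), Eif4g3 (-1.59), which takes part in translation initiation, the tight-junction gene Cldn6 (-1.53) and the vitamin C transporter gene Slc23a1 (-1.51) followed. Neurod1, Peg3, Igf2, Krt8, Gbp2, Sycp3, Hmgn5, Ap1m2, Car4 and Esrp1 spanned -1.49 to -1.28. The Hmgn5 controls ranged from 7.04 to 8.17, and its call was lost without scrambled replicate 3 (largest of the 3 limma adjusted p-values 0.0557).

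**Figure D2:**
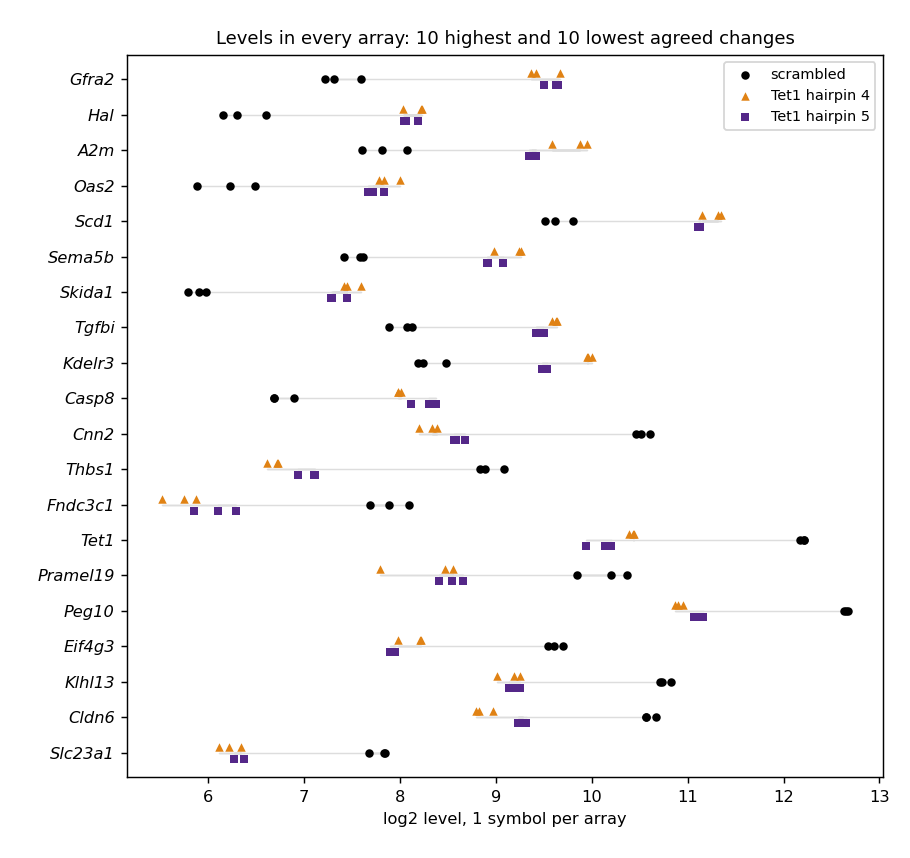
Log2 level in each of the 9 arrays (horizontal axis) for the 10 highest and 10 lowest agreed genes, with scrambled arrays as circles, hairpin 4 as triangles and hairpin 5 as squares. For Gfra2 the controls lie at 7.22 to 7.60 and the knockdown arrays at 9.37 to 9.67. No gene shown has overlapping control and knockdown values, as for 1145 of 1146 agreed higher and 722 of 722 agreed lower probe sets.

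Gene functions were then read through 54 lists with 3734 measured members, described by counts in the agreed response beside the share over 18784 genes, of which 1091 rose (5.81%) and 669 fell (3.56%) with a median change of -0.0001. No list was tested as a set. The functions with the highest shares of fallen genes were epithelial: of 27 genes of keratins and epithelial junctions, 12 fell and 1 rose, and the median change was -0.32. Leaving out single arrays gave 10 to 14 fallen genes.

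Keratins 8, 18 and 19 build the intermediate filaments of simple epithelia. Krt8 read 9.67, 10.11 and 9.80 with the scrambled hairpin, 8.39, 8.52 and 8.47 with hairpin 4 and 8.32, 8.55 and 8.55 with hairpin 5. The knockdown arrays formed a narrow cluster more than 1 unit below the controls (change -1.39 ± 0.10, SE, 2.63-fold lower, limma adjusted p = 1.8e-05). Krt18 changed by -0.98 ± 0.08 and Krt19 by -0.88 ± 0.07. The claudins seal tight junctions, and Cldn6 changed by -1.53 ± 0.06 and Cldn4 by -1.09 ± 0.07. Cldn4 moved by the same amount with each hairpin (-1.09 and -1.09).

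Esrp1, which directs epithelial patterns of splicing, read 10.16, 9.97 and 10.05, then 8.52, 8.49 and 8.54 with hairpin 4 and 8.98, 9.14 and 9.03 with hairpin 5. It fell with both, and by more with hairpin 4 (-1.55) than with hairpin 5 (-1.01, limma adjusted p of the difference 0.028). Cdh1, the epithelial cadherin of ES cell contacts, fell by 0.38 ± 0.04 from a scrambled range of 11.71 to 11.74, a small change on a very tight spread (limma adjusted p = 0.00034). Further fallen members were named after their values were seen: Grhl2, a transcription factor of epithelial genes (-0.59), Cldn7 (-0.60), the polarity protein gene Crb3 (-0.54), Tjp3 (-0.49) and Krt7 (-0.46). Ocln, another tight-junction gene, went the other way (0.35), and its call was lost without scrambled replicate 2 or 3, without hairpin 4 replicate 1 or 3, without both arrays that stand apart, and under repeated quantile normalization or median centring (largest adjusted p 0.0501 to 0.11). Vim, an intermediate filament gene of mesenchymal and many cultured cells, rose by 0.76 ± 0.06 (12.04 to 12.23 in the controls, 12.83 to 13.03 in the knockdown arrays). Of 10 fibroblast markers, Thy1 alone was in the agreed response (0.81 ± 0.06), Lum, Postn, Prrx1 and Dcn lay below the median probe set, and the mean over the 10 was 5.97 to 6.14 in the control arrays and 5.99 to 6.14 in the knockdown arrays. The part of other cells in these changes was not tested.

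Genes of smooth muscle and the actin cytoskeleton also had a high share of decreases. Of 33 measured, 12 fell and 1 rose (median -0.23), and 10 to 13 fell when single arrays were left out. Beside Cnn2 and Thbs1, Acta2, the smooth muscle actin, read 7.58, 7.67 and 7.56 in the controls, 6.20, 6.46 and 6.27 with hairpin 4 and 6.28, 6.51 and 6.29 with hairpin 5. Both hairpins gave the same range (change -1.27 ± 0.08, SE, 2.41-fold lower, limma adjusted p = 8.6e-06). Tagln, which encodes transgelin, an actin cross-linker, changed by -0.99 ± 0.05. The other fallen members, named after their values were seen, included the tropomyosin genes Tpm1 (-0.66), Tpm4 (-0.47) and Tpm2 (-0.28), the focal adhesion gene Zyx (-0.54), the matricellular genes Ccn1 (-0.50) and Ccn2 (-0.47), the non-muscle myosin gene Myh9 (-0.40) and the filamin gene Flna (-0.35). The single riser, Tagln2 (0.31), was not called without scrambled replicate 1 or 3 or hairpin 4 replicate 1 or 2 (largest adjusted p 0.0564 to 0.0749). Actb, the cytoplasmic actin present in all cells, had a pooled change of 0.01 that did not pass (limma adjusted p = 0.94).

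**Figure D3:**
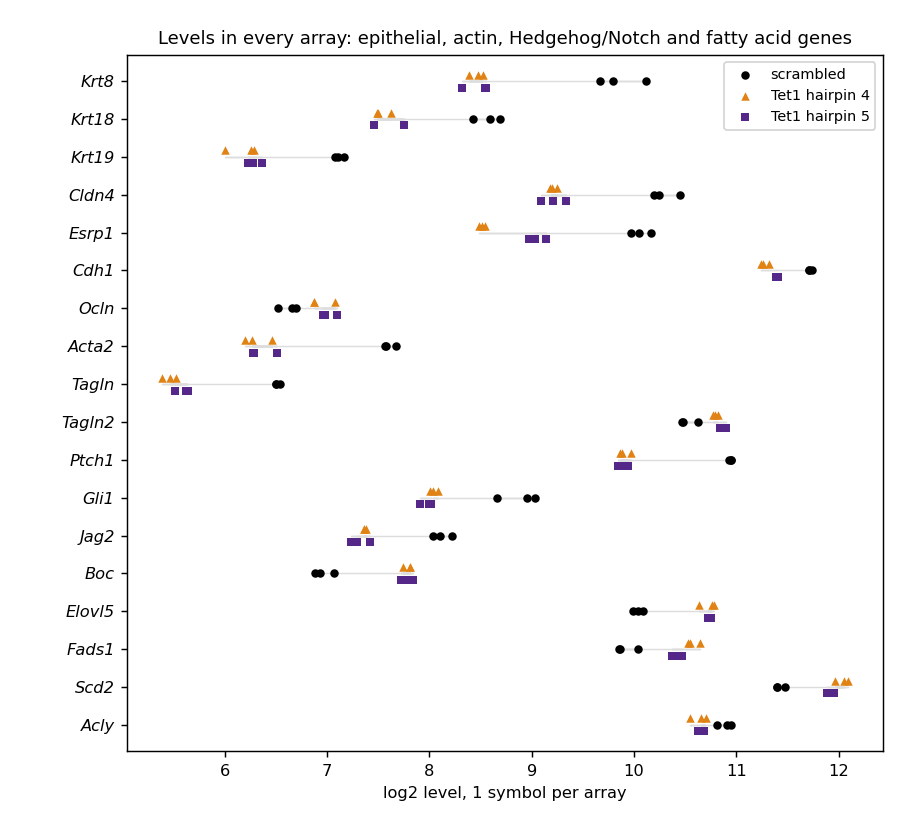
Log2 level in each of the 9 arrays (horizontal axis) for genes of epithelia, actin, Hedgehog or Notch signalling and fatty acids, with the scrambled arrays as circles and hairpins 4 and 5 as triangles and squares. Krt8 lies at 9.67 to 10.11 in the controls and at 8.32 to 8.55 in the knockdown arrays, whereas Ocln, Tagln2, Boc, Elovl5, Fads1 and Scd2 lie higher in the knockdown.

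Imprinted genes are transcribed from 1 parental copy, chosen by DNA methylation set in the germline. Of 37 measured, 9 fell and 2 rose (24.3% and 5.41%, median -0.09), and 9 or 10 fell when single arrays were left out. Peg10, a gene of retroviral origin needed in placenta, read 12.63, 12.65 and 12.68 with the scrambled hairpin, 10.95, 10.90 and 10.86 with hairpin 4 and 11.06, 11.15 and 11.16 with hairpin 5. Both hairpins lay far below a very tight control group, hairpin 4 the lower (change -1.64 ± 0.05, SE, 3.11-fold lower, limma adjusted p = 2.8e-07). Sgce, which encodes epsilon-sarcoglycan and neighbours Peg10, changed by -0.95 ± 0.11. Igf2, the fetal growth factor, read 8.11, 8.31 and 8.08, then 6.73, 6.79 and 6.83, then 6.58, 6.70 and 6.70, a change of -1.45 ± 0.06. The zinc finger gene Peg3 changed by the same amount (-1.45 ± 0.08). The remaining fallen members, named after their values were seen, were Ube3a (-0.70), Impact (-0.70), Mest (-0.69), Grb10 (-0.69), an adaptor that limits insulin signalling, and Phlda2 (-0.61). The risers were Ddc (0.63), lost without scrambled replicate 3 or hairpin 5 replicate 3, and Cobl (0.32), lost without scrambled replicate 1 or hairpin 5 replicate 2 or 3 (largest adjusted p 0.0521 to 0.0679 for Cobl and 0.0546 to 0.0577 for Ddc).

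Of 15 genes of the formative epiblast, the state that follows naive pluripotency, 4 fell and 2 rose. Dnmt3b, a methyltransferase that places new methyl groups on DNA, read 10.41, 10.44 and 10.40, then 9.38, 9.45 and 9.42 with hairpin 4 and 9.68, 9.84 and 9.79 with hairpin 5. Its change was -0.82 ± 0.05 (SE, 1.76-fold lower, limma adjusted p = 9.3e-06), with hairpin 4 below hairpin 5 in every array. The kinase gene Pim2 (-0.76) and the growth factor gene Fgf5 (-0.51) fell as well, and Otx2 (-0.36) was called but lost in 7 of the 9 settings with 1 array left out (largest adjusted p 0.052 to 0.111). The 2 members that rose were Lef1 (1.03) and Etv4 (0.71), and both kept their call in all alternatives. Of 12 genes known from the 2-cell embryo 5 fell, 3 without scrambled replicate 1, with Tmem92 (-1.01) and Zfp352 (-0.75) the furthest.

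Lists of pluripotency and stress moved in both directions. In the naive pluripotency list, 5 of 25 genes were agreed higher and 2 lower, and 3 were higher without scrambled replicate 1 or 3 or any single hairpin 5 array, with 1 lower without scrambled replicate 1 or 3. Klf4, a reprogramming factor that rose, read 10.01, 10.20 and 10.12, then 10.58, 10.62 and 10.53 with hairpin 4 and 10.38, 10.37 and 10.38 with hairpin 5, and its call was lost in those same settings and after repeated quantile normalization (largest adjusted p 0.0568 to 0.0631). The 2 lower genes were Dppa3 (-0.98) and Fbxo15 (-0.43). The Dppa3 call was lost without both arrays that stand apart, and the Fbxo15 call without scrambled replicate 1 or 3. The interferon response list, to which Oas2 and Xaf1 belong, had 5 fallen and 3 risen genes of 29, with Gbp2 (-1.35), Ifitm1 (-0.65) and Ifitm3 (-0.45) the furthest down. The 5 became 3 without scrambled replicate 3, hairpin 4 replicate 2 or both arrays that stand apart. Of 27 p53 targets 2 rose and 5 fell (median -0.23), and 1 rose without scrambled replicate 2 or hairpin 4 replicate 1 or 3.

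Hedgehog and Notch are signalling routes between cells. Hedgehog ligands act through the receptor Ptch1 and the transcription factor Gli1, both of which are also targets of the pathway, while Notch receptors are switched on by ligands of neighbouring cells such as Jag2. Of 29 genes, 6 fell and 1 rose, and leaving out single arrays gave 5 or 6 fallen. Ptch1 read 10.93, 10.95 and 10.95 in the controls, 9.88, 9.87 and 9.97 with hairpin 4 and 9.88, 9.84 and 9.94 with hairpin 5. The 9 values formed only 2 narrow clusters (change -1.05 ± 0.05, SE, 2.07-fold lower, limma adjusted p = 2.1e-06). Gli1 changed by -0.87 ± 0.08 and Jag2 by -0.78 ± 0.06. The Hedgehog decoy receptor gene Hhip fell by 0.49, a call that failed with scrambled replicate 3 or hairpin 4 replicate 1 or 2 left out (largest adjusted p 0.0518 to 0.0666). Boc, a cell-surface co-receptor for Hedgehog, rose by 0.83 ± 0.06, and a further riser was called without hairpin 4 replicate 3. Dll3 (-0.43) and Notch3 (-0.42), the remaining fallen members, were named after their values were seen.

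Genes that build and desaturate fatty acids had the highest share of increases among the lists. Of 28 measured, 9 rose and 1 fell (median 0.23), against 5.81% rising over all genes. The count of 9 was 5 without hairpin 4 replicate 1, hairpin 4 replicate 3 or hairpin 5 replicate 2. Scd1, which inserts the double bond of oleate, read 9.62, 9.52 and 9.80, then 11.31, 11.15 and 11.35 with hairpin 4 and 11.11, 11.13 and 11.11 with hairpin 5. Its change was 1.55 ± 0.07 (SE, 2.92-fold, limma adjusted p = 2.1e-06), and the related desaturase gene Scd2 changed by 0.55 ± 0.05. Elovl5, which lengthens polyunsaturated chains, rose by 0.69 ± 0.05, from 9.99 to 10.08 in the controls to 10.63 to 10.78 in the knockdown arrays, with equal changes for the hairpins (0.69 and 0.70). The desaturase gene Fads1 rose by 0.57 ± 0.06. The others, named after their values were seen, were Me1 (0.49), Fads2 (0.48), Elovl2 (0.44), Acsl3 (0.38) and Gpam (0.37). Acly, which makes the acetyl-CoA for this synthesis, fell by 0.25, and its call was lost in 7 of the 9 settings with 1 array left out (all but scrambled replicate 1 and hairpin 4 replicate 2) and under repeated quantile normalization (largest adjusted p 0.0546 to 0.107 over these and other alternatives). In the related synthesis of cholesterol 3 of 18 genes rose (Sc5d, Sqle and Msmo1) and 0 fell, also in every setting with 1 array left out.

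The agreed members among genes of energy and protein turnover all rose, but most members did not pass. Of 79 genes of the respiratory chain 11 rose (13.9%) and 0 fell (median 0.16). Among those that kept their call in all alternatives, Atp5mpl at 0.51 ± 0.09, Sdhd at 0.49 ± 0.06 and Ndufc2 at 0.35 ± 0.05 rose most. These are subunits or partners of ATP synthase, succinate dehydrogenase and NADH dehydrogenase. The count of 11 was not steady: without scrambled replicate 1, hairpin 4 replicate 1 or hairpin 4 replicate 2 it was 7, without scrambled replicate 3 or hairpin 5 replicate 1 or 2 it was 6, and without hairpin 4 replicate 3 or hairpin 5 replicate 3 it was 5. Of 38 proteasome genes 4 rose (10.5%) and 0 fell (median 0.14), led by the immunoproteasome subunit gene Psmb10 at 0.46 ± 0.06. Only 2 rose without hairpin 4 replicate 2 or 3 or without both arrays that stand apart. Above the median level were 72 of 79 respiratory chain and 35 of 38 proteasome genes. In level groups 4 and 5, the highest, 10.5% and 8.86% of all probe sets were agreed higher, so the proteasome share was near these. Of 77 chaperone genes 6 rose (7.79%, near the 5.81% over all genes) and 0 fell (median 0.05), of which Dnajb13 (0.62), the clathrin-uncoating auxilin gene Dnajc6 (0.55) and Dnajc10 (0.44), a disulphide reductase of the endoplasmic reticulum, were the largest steady ones. Chaperone genes that fell numbered 3 without scrambled replicate 2, 2 without both arrays that stand apart and 1 after repeated quantile normalization. Ribosomal protein, core histone and protocadherin genes had no agreed member (0 of 44, 0 of 42 and 0 of 33). In each of these lists 1 at most was called when an array was left out or the values were rescaled. Most protocadherin probe sets carried little signal, with 0 of 33 above the median, while 41 of 44 ribosomal ones were above it.

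**Figure D4:**
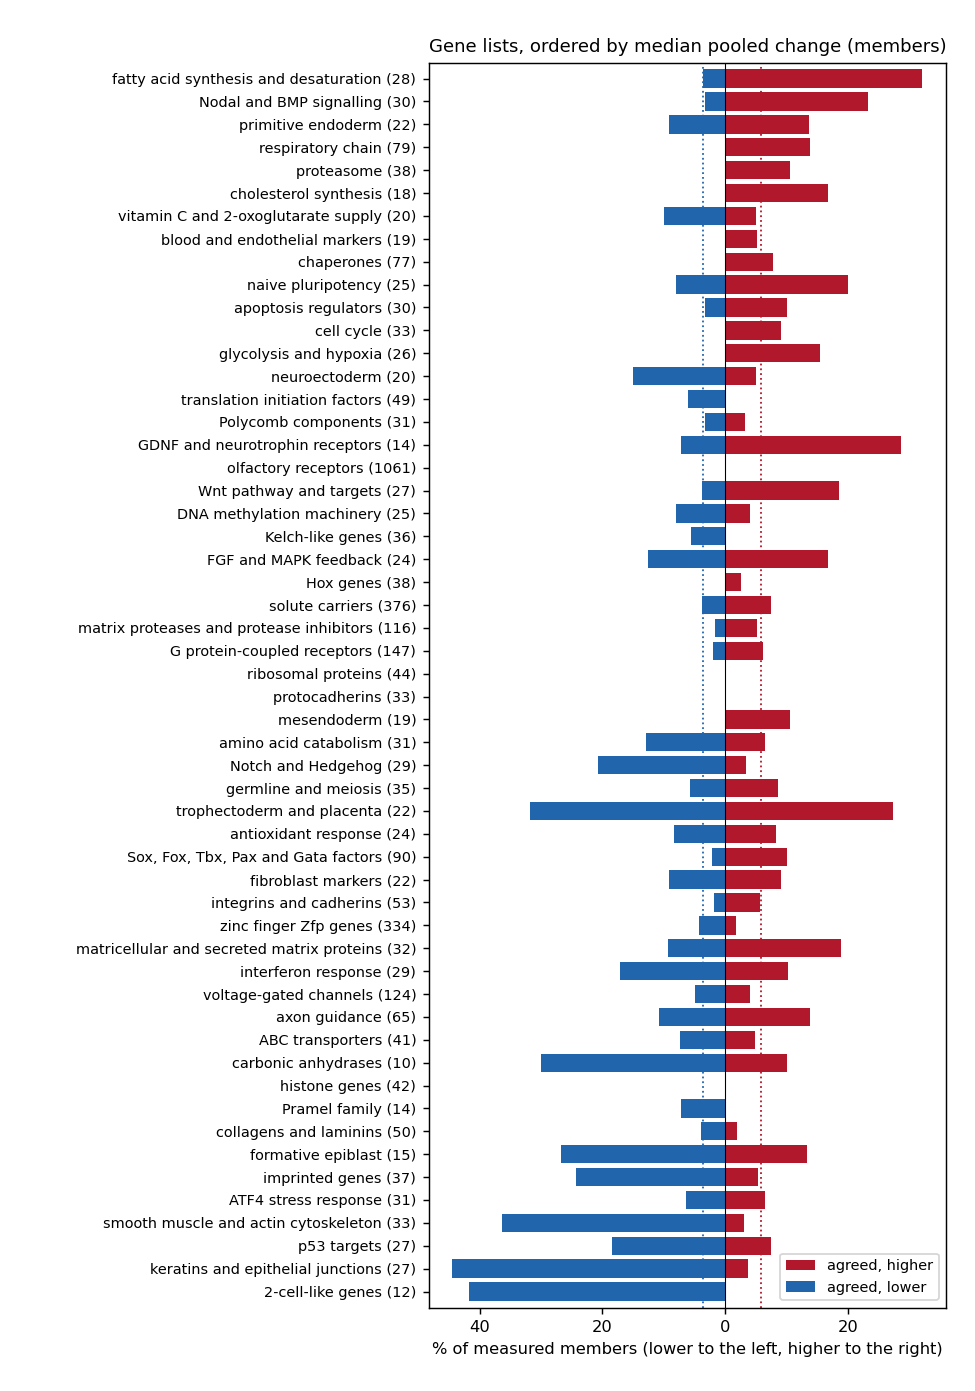
Share of each list's measured members that were agreed higher (red, to the right) or agreed lower (blue, to the left), ordered by median pooled change, with member counts in brackets and dotted lines at 5.81% and 3.56%, the shares over all genes. Fatty acid genes stand at the top, and epithelial and 2-cell-like genes at the bottom.

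Surface receptors of the GDNF and neurotrophin systems, which carry survival signals in neurons and germline stem cells, showed 4 increases in 14 genes. Beside Gfra2 these were the neurotrophin receptor gene Ntrk3 (0.78 ± 0.08), the low-affinity receptor gene Ngfr (0.53 ± 0.05) and Gfra1 (0.41 ± 0.06), all kept whichever array was left out. The co-receptor gene Gfra3 fell by 0.40, a call that was kept without scrambled replicate 3 and lost without each of the 8 other arrays (largest adjusted p 0.0551 to 0.123 over all alternatives that lost it). Only 4 of the 14 genes had a scrambled level above the median gene.

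Axon guidance genes, which encode secreted and membrane cues with their receptors, moved both ways: of 65, 9 rose and 7 fell. Sema5b read 7.42, 7.61 and 7.59 in the controls, 9.26, 9.24 and 8.98 with hairpin 4 and 8.91, 8.92 and 9.07 with hairpin 5, a gain of 1.52 ± 0.08 (SE, 2.88-fold, limma adjusted p = 4.4e-06). Robo4, a guidance receptor best known from endothelium, rose by 1.23 ± 0.08, and Sema4a (0.57) and Sema4d (0.55) rose as well. The semaphorin receptor gene Nrp2 (-0.72), Sema6a (-0.70) and Epha1 (-0.68) fell. The count of 7 fallen genes was 4 without scrambled replicate 1 or 3.

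Ligands and feedback genes of Nodal and BMP signalling, which steer early lineage choices, mostly rose where they passed: 7 of 30 rose and 1 fell (5 to 8 rose when arrays were left out). Pmepa1, an inhibitor of SMAD signalling, read 9.11, 9.39 and 9.25, then 10.02, 10.09 and 9.98, then 9.83, 9.79 and 9.83. The groups stood apart, with hairpin 4 highest (0.67 ± 0.07, SE, limma adjusted p = 0.00011). The activin subunit gene Inhbb (0.75 ± 0.05), the inhibitor Smad7 (0.49) and the ligand Bmp4 (0.47) also rose, while Skil, a corepressor of SMAD proteins, fell by 0.65. In the Wnt pathway 5 of 27 genes rose, and Lef1, the transcription factor that pairs with beta-catenin, rose by 1.03 ± 0.08, to between 10.10 and 10.43 in the knockdown arrays from at most 9.38 in the controls. The Wnt inhibitors Sfrp1 (0.75), Notum (0.73) and Apcdd1 (0.54) rose with it. Wnt7b, a ligand, was lower by 0.39 in a call that was kept only without hairpin 4 replicate 2 among the 9 settings with 1 array left out (largest adjusted p 0.0574 to 0.157 over the alternatives that lost it).

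Transcription factors of the Sox, Fox, Tbx, Pax and Gata families rose more often than they fell (9 and 2 of 90). The same held over all genes, of which 1091 rose and 669 fell out of 18784 (5.81% and 3.56%). Pax8, known from thyroid and kidney, rose by 0.96 ± 0.06 and Foxd1 by 0.96 ± 0.08. Tbx3, which supports self-renewal in ES cells, rose by 0.84 ± 0.05 and the endodermal factor Sox7 by 0.81 ± 0.11. The neural factor Pax6 fell by 0.56 ± 0.07 and Foxp1 by 0.47 ± 0.05. Eomes, a factor of trophoblast and mesendoderm, read 6.94, 6.82 and 6.84, then 8.10, 8.04 and 8.32, then 8.24, 8.36 and 8.19. It rose by 1.34 ± 0.07 (SE, 2.53-fold, limma adjusted p = 5.4e-06), while Mixl1 and Gsc, the others of the 3 mesendoderm markers checked, had changes of -0.08 and 0.05 that did not pass. In the longer mesendoderm list 2 of 19 genes rose (10.5%), Eomes and Bmp4 (0.47), and 0 fell. Trophectoderm and placenta genes split, with 6 of 22 higher and 7 lower, the lower ones including the keratins above. Among the neuroectoderm markers Nes fell with Pax6 (-0.61 ± 0.07), Sox1 and Tubb3 had changes of 0.07 and 0.21 that did not pass, and the mean over these 4 was 7.53 to 7.60 in the controls and 7.22 to 7.48 in the knockdown arrays.

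Among secreted matrix proteins 6 of 32 rose and 3 fell. Tgfbi read 7.88, 8.07 and 8.12 in the controls, 9.58, 9.63 and 9.63 with hairpin 4 and 9.50, 9.42 and 9.49 with hairpin 5, so both hairpins raised it to nearly 1 level (1.52 ± 0.06, SE, 2.86-fold, limma adjusted p = 1.5e-06). The collagen cross-linker Loxl2 (0.70), the collagen-binding protein Sparc (0.58) and Ltbp1 (0.46), which anchors latent TGF-beta, rose too, and Smoc1 fell by 0.88 ± 0.09 beside Thbs1. In the laminins, trimers of basement membranes, the alpha chain gene Lama1 rose by 0.56 ± 0.06 and the beta chain gene Lamb1 fell by 0.62 ± 0.05. Among 53 integrins and cadherins, Cdh4 (0.81), Itga9 (0.62) and Itga5 (0.45) rose and Cdh1 fell. These shares of 5.66% and 1.89% were no higher than the 5.81% and 3.56% over all genes.

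Of 376 solute carriers, the transporters of small molecules, 28 rose and 14 fell (7.45% and 3.72%), close to the shares over all genes. The glutamine transporter gene Slc38a5 (1.03), the GDP-fucose carrier gene Slc35c1 (0.94), the bicarbonate carrier gene Slc4a5 (0.90) and the carnitine carrier gene Slc25a20 (0.90) rose most. Slc23a1, one of the transporters that bring vitamin C, a cofactor of Tet enzymes, into cells, read 7.84, 7.68 and 7.84, then 6.11, 6.21 and 6.34, then 6.27, 6.38 and 6.37. It fell by 1.51 ± 0.07 on the log2 scale (SE, 2.84-fold, limma adjusted p = 2.1e-06). The iron exporter gene Slc40a1 (-0.97), the neutral amino acid carrier gene Slc1a4 (-1.03) and the mitochondrial ATP carrier gene Slc25a24 (-0.92) fell as well. In the list of genes that supply vitamin C and 2-oxoglutarate, the co-substrate of Tet enzymes, 1 of 20 rose (Gulo, 0.55 ± 0.06) and 2 fell (Slc23a1 and Gpt2, -0.58 ± 0.06), and 4 fell without scrambled replicate 2 or both arrays that stand apart, while 2 rose without scrambled replicate 1 or 2, without both arrays or after median centring.

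Of 31 genes of amino acid breakdown 19.4% were in the agreed response, and of 24 antioxidant genes 16.7%, against 9.37% over all genes. In the antioxidant list 2 rose and 2 fell. That fall was 1 without scrambled replicate 2, hairpin 4 replicate 1 or 3 or any single hairpin 5 array. In amino acid breakdown Hal and the ornithine enzyme gene Oat (1.11 ± 0.06) rose, while Gldc, of the glycine cleavage system, read 11.03, 10.91 and 10.96, then 10.15, 10.11 and 10.12, then 9.98, 10.17 and 10.09 (-0.87 ± 0.06). Arg2 fell by 0.53, and 4 of 31 genes fell in all, 2 without scrambled replicate 3, hairpin 4 replicate 1 or both arrays that stand apart. Among glutathione peroxidases, which remove peroxides, Gpx2 rose by 1.03 ± 0.07 and Gpx1 by 0.83 ± 0.08. Gpx4, which acts on lipid peroxides in membranes, fell by 0.88 ± 0.11, from 8.18 to 8.50 in the controls to 7.11 to 7.69 in the knockdown arrays. Of 10 carbonic anhydrases, which hydrate carbon dioxide, Car4 (-1.29 ± 0.08), Car3 (-0.88 ± 0.05) and Car2 (-0.80 ± 0.06) fell. Car6, a secreted member, was higher by 0.43 with a call lost without 7 of the 9 arrays in turn (kept without scrambled replicate 3 or hairpin 4 replicate 2, largest adjusted p 0.0506 to 0.165 elsewhere). Among ABC transporters the cholesterol exporter gene Abca1 fell by 0.84 ± 0.07 and Abcb6, a porphyrin transporter, rose by 0.64 ± 0.06.

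Large gene families differed in the share called, which was 9.37% over all genes. Olfactory receptor (0.189%) and Zfp genes (5.99%) lay below it. The list of voltage-gated channels (8.87%) and that of G protein-coupled receptors (8.16%) lay near it. The channel list also holds genes outside that class, such as Kcnk1 and Kcnj12, and accessory subunit genes such as Kcnip2. Of 1061 olfactory receptor genes, 9 were above the median level and 2 were called (0.189%), 1 in each direction, and 3 fell without both arrays that stand apart. Of 334 zinc finger genes named Zfp, 214 were above the median level, 6 rose and 14 fell. That 14 became 28 without scrambled replicate 2, 24 without both arrays that stand apart and 23 after repeated quantile normalization, and the 6 became 3 without hairpin 4 replicate 1 or hairpin 5 replicate 2. Zfp36, which promotes decay of AU-rich messenger RNAs, fell by 0.83 ± 0.08. Of the 124 genes of the channel list 5 rose and 6 fell, with the related calcium channel subunit genes Cacna2d2 (0.72 ± 0.06) and Cacna2d1 (-0.83 ± 0.09) in opposite directions, and 10 rose without scrambled replicate 2 and 12 without both arrays. Of 147 G protein-coupled receptor genes 9 rose, Gprc5a (0.74), Gpr83 (0.74) and Gprc5b (0.66) the furthest, and 3 fell, among them Gpr19 (-0.50). Without hairpin 4 replicate 1 or any single hairpin 5 array 5 receptors rose, and 1 fell without scrambled replicate 1 or hairpin 5 replicate 1 or 2, while 5 fell after median centring and 6 without both arrays that stand apart.

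Promoter composition was read for the 15025 measured genes with a RefSeq window of 300 bases (250 before and 50 after the start). Where a gene had several, the window with the highest ratio of observed to expected CG was used. A window was called high in CG at a ratio of at least 0.75 with at least 55% G and C, and low at a ratio under 0.48. High-CG promoters made up 35.7% of all measured genes, 52.3% of the agreed higher and 40.5% of the agreed lower, and low-CG promoters 36.6%, 13.2% and 21.7%. Class and signal level moved together, since 4.59% of genes in the lowest level group and 61.6% in the highest had high-CG promoters.

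Within the upper levels the order was another. In the highest level group, 13.1% of low-CG genes rose and 12.5% fell, against 8.97% and 4.27% of high-CG genes. One level step below, 12.4% of low-CG genes rose and 9.22% fell, against 10.8% and 4.95%. The low-CG groups there are small, with 176 and 282 genes. Over genes with a single window the highest level group gave 11.8% and 11.8% for low-CG genes against 9.09% and 3.57%. Among the 2-fold changes low-CG promoters made up 16 of 54 higher genes (29.6%) and 12 of 30 lower ones (40%). Over all measured genes the share was 36.6%, but this includes the lowest level group, at 85.4%. In level groups 3, 4 and 5 low-CG promoters made up 25.9%, 9.38% and 5.86% of genes. Over all probe sets, most 2-fold changes lay in these groups (25, 33 and 11 higher, 18, 10 and 11 lower). These shares are descriptions, and the arrays measured no methylation.

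**Figure D5:**
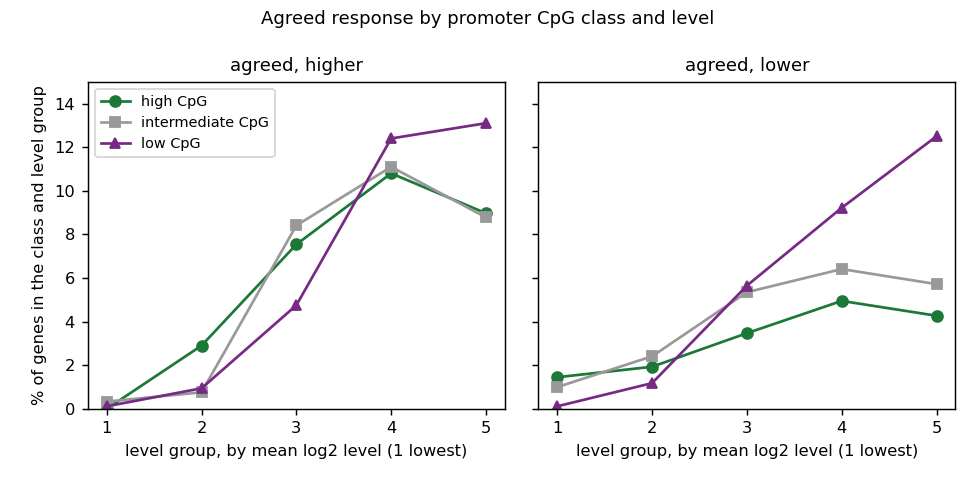
Percent of genes that were agreed higher (left) or agreed lower (right), in 5 equal groups by mean log2 level (horizontal axis, 1 lowest) and by promoter CG class. In the highest group 12.5% of low-CG genes fell against 4.27% of high-CG genes.

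Neighbours on the chromosome were compared by gene order in RefSeq (assembly GRCm38.p6) for 18732 genes. Of 1090 risen genes 210 (19.3%) lay next to another risen gene, against 10.6% of the other genes, and of 669 fallen genes 94 (14.1%) lay next to a fallen gene, against 6.72%. For the opposite direction, 63 of the risen (5.78%) lay next to a fallen gene, near the 6.72% of all genes that did not fall. Of the fallen, 60 (8.97%) lay next to a risen gene, near the 10.6% of all genes that did not rise. There were 14 runs of 3 genes that rose and 4 runs of 3 that fell. The cytokine-signalling kinase gene Jak1 (0.75), the mitochondrial adenylate kinase gene Ak4 (0.51) and Dnajc6 (0.55) formed a run that rose, as did Tead2 (0.27), Cd37 (1.28) and Slc6a16 (0.89). Adjacent genes share level and sequence context, and the part of these in the shares was not tested.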

How the data were processed

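Values were taken from the deposited table as they stand, on a log2 scale, 1 per probe set and array. Per the submitters' processing notes, affy, RMA and limma were used by the authors, with no version, order or genome build given in the sources used here. Symbols came from the platform annotation: 18786 probe sets had 1, 6 had several and 2420 had none. The 6 columns of the Sin3A set, which seem to have been normalized apart, were not used.

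The 9 arrays entered 1 limma 3.58.1 fit (lmFit and eBayes in R 4.3.3, 3 group means, two-sided), with Benjamini-Hochberg adjustment over 21212 probe sets and a threshold of 0.05. The scripts were tested on simulated data. Genes named were the Tet family, 5 controls (Gapdh was not found), the 20 highest and 20 lowest agreed genes, and up to 4 agreed genes per list and direction, leaving out RIKEN, Gm and LOC names. Members and lists were chosen with earlier results of these data known, and families caught wrongly by shared name stems were removed from the lists after their counts were seen. 1 further gene list is not reported here.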

Additional observations from a re-analysis of the deposited data

Results flagged for a closer look

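In 8 named genes of the agreed response the size of the change differed between the hairpins by the contrast of hairpin 5 minus hairpin 4 in the same limma fit (n = 3 arrays per group). The difference was 0.51 on the log2 scale for Car2 (limma adjusted p = 0.042), 0.50 for Car3 (0.028) and 0.53 for Esrp1 (0.028), all of which fell by more with hairpin 4. It was -0.61 for Chac1, which encodes a glutathione-degrading enzyme (limma adjusted p = 0.028), -0.53 for the immediate early gene Egr1 (0.047), -0.56 for the phospholipid transfer protein gene Pltp (0.024) and -0.57 for Slc1a4 (0.028), all of which fell by more with hairpin 5. For Xaf1, an interferon-induced gene, it was -0.43 (0.036), with the larger rise under hairpin 4. The agreed call itself was lost for Egr1 in 10 alternatives, among them 8 of the 9 with 1 array left out (largest adjusted p 0.0544 to 0.155), and for Chac1 in 4 (0.0523 to 0.071). That both hairpins moved each of the 8 genes the same way follows from the definition of the agreed response. The difference between the hairpins was not recomputed here with arrays left out.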

How the results depend on the processing

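The probe set counts of the pooled contrast and the agreed response stayed within 1.5 times under repeated quantile normalization, median centring, a level filter and trended robust variances. Several list counts moved further. Fallen ABC transporters went from 3 to 5 after repeated quantile normalization, and fallen collagens and laminins from 2 to 4 after median centring. With both hairpins as 1 group of 6 arrays, where by construction each hairpin need not pass, 1955 probe sets were agreed higher and 1294 lower. With 1 array left out, 894 to 1505 were lower in the pooled contrast and 471 to 886 in the agreed response, the lowest without scrambled replicate 3. Same-numbered arrays of different groups did not deviate together throughout (r from -0.29 to 0.52). Those of scrambled and hairpin 4 had r of 0.27, 0.52 and 0.17, but scrambled replicate 1 with hairpin 4 replicate 3 had 0.28. Deviations in a group of 3 sum to 0, so these values cannot settle whether the numbers pair the arrays. With a replicate block 1757 were agreed, of which 1655 were the same. The share of agreed calls that were higher ran from 55.5% after repeated quantile normalization to 65.9% without scrambled replicate 3, against 61.3%. No agreed call turned direction in any of 16 alternatives, and 167 of 230 named agreed genes kept their call in all. Near-zero changes turned sign: Actb was -0.0059 after median centring and -0.00014 to 0.015 with 1 array left out (lowest without scrambled replicate 1). Sox2 was -0.0038 after median centring, -0.032 (without scrambled replicate 2) to 0.047 with 1 array left out, and -0.018 without both arrays that stand apart. Tet2 ran from -0.055 to 0.034 with 1 array left out, and was positive at 0.020 and 0.025 without scrambled replicates 1 and 3, 0.034 without hairpin 4 replicate 3 and 0.018 without hairpin 5 replicate 1. The cause was not tested. Few probe sets of lowest signal were called, and the part of signal over background in this was not tested.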

Other observations

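Germline and meiosis genes moved singly. Hormad2, a protein of unsynapsed meiotic chromosome axes, read 6.89, 6.19 and 6.42 with the scrambled hairpin, 7.84, 7.54 and 7.99 with hairpin 4 and 7.54, 7.77 and 7.54 with hairpin 5, a rise of 1.20 ± 0.15 on the log2 scale (SE, n = 3, limma adjusted p = 0.00051). Dazl, an RNA-binding protein of germ cells, rose by 0.76 ± 0.07, and Sycp3, of the synaptonemal complex, fell by 1.34 ± 0.23. The mitogen-induced phosphatase gene Dusp4 fell by 0.65 ± 0.06 while Etv4, a transcription factor downstream of FGF, rose by 0.71 ± 0.06. The cyclin gene Ccnd2 rose by 0.89 ± 0.06, and Bcl2, an inhibitor of apoptosis, fell by 0.34 ± 0.06 beside the rise of Casp8. Apoe, which carries lipids, read 12.05, 12.28 and 12.32 in the controls and 10.99 to 11.63 in the knockdown arrays, a decrease of 0.95 ± 0.08.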
